A study of Homo sapiens with 11 samples.

Results

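VHL and 9 genes that act with it in the response to low oxygen were examined in HK2 cells. The 10 genes were VHL, HIF1A, EPAS1, EGLN1, EGLN2, EGLN3, VEGFA, CA9, NDRG1 and EPO. These genes, and the further gene lists below, were chosen with earlier results of these data known. Each of the 10 was looked up by name in the RNA-seq data and matched a single gene among 58288. All 10 also belong to the 19646 protein-coding genes of the GRCh37 annotation that had a row in the RNA-seq data, and this set served as the background. HK2 is an immortalised human kidney line of proximal tubule origin. RNA-seq was carried out in 2 libraries, and ChIP-seq of H3K4me3, H3K27ac and H3K27me3 in 2 replicates of each mark. All samples came from HK2 cells under a single condition, DMEM-F12 medium with 10% FBS and 0.05% DMSO in 5% CO2, with no low-oxygen arm. The values therefore describe baseline levels in a cultured line and contain no contrast between treatments. Nothing states that replicates were separate cultures, so the spread between them may be technical.

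In cells with ample oxygen, the prolyl hydroxylases encoded by EGLN1, EGLN2 and EGLN3 modify the alpha subunits of the hypoxia-inducible factors (HIFs), which are encoded by HIF1A and EPAS1. The VHL protein recognises the modified subunits and, as the substrate receptor of a ubiquitin ligase, sends them for degradation. When oxygen is scarce the alpha subunits accumulate, pair with ARNT and activate genes such as VEGFA, CA9, NDRG1 and EPO. Most of this control acts on HIF protein, which RNA-seq and histone marks do not measure. VHL is the gene most often inactivated in clear cell renal carcinoma, a tumour of the renal tubule, and EPO in the adult kidney is made by interstitial cells and not by tubule cells.

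The ratio of read coverage to FPKM corresponded to 5.67 and 5.52 Gb of aligned bases in RNA-seq libraries 1 and 2, so depth hardly differed. FPKM is a fragment count divided by the size of the transcript and of the library, which allows levels of different genes to be set side by side. Where a gene has several transcripts, its FPKM is their sum. H3K4me3 marks promoters, H3K27ac active promoters and enhancers, and H3K27me3 repressed chromatin. The peak lists of replicates 1 and 2 covered 42.1 and 48.2 Mb for H3K4me3, 107 and 38.9 Mb for H3K27ac, and 88.3 and 26.7 Mb for H3K27me3. Peaks carry no height or read number in these lists, so the depth of a peak could not be given.

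The label of the cells as proximal tubule epithelium was compared with marker genes. The epithelial keratin gene KRT8 had an FPKM of 182 ± 3.73 (SD, n = 2 libraries, as for all values given with ±), the renal lineage factor PAX8 102 ± 2.79, KRT18 56.1 ± 16.9 and EPCAM 40.7 ± 1.07. The fifth epithelial marker, the cadherin gene CDH1, was at 0.247 ± 0.0520 and had H3K27ac and H3K27me3 peaks at its transcription start sites (TSSs) in both replicates of each mark. Of 10 proximal tubule markers, only the glucose transporter gene SLC5A2 reached an FPKM of 1 in both libraries, at 1.56 and 2.36. AQP1 was at 0.205, ANPEP at 0.163 and SLC34A1 at 0.109 on average, with H3K27me3 at ANPEP in both replicates. SLC5A2 and SLC34A1 had H3K27ac at a TSS in both replicates. CUBN was at 0.0375, and LRP2, SLC22A6, SLC5A1, SLC22A8 and HNF4A were listed at 0 in both libraries. LRP2, SLC22A6 and SLC22A8 had H3K27me3 peaks at a TSS in both replicates. The summed FPKM of the 10 markers was 2.22 and 2.74 in libraries 1 and 2. The cells were thus epithelial by most of their markers, while most transporters and receptors that define the proximal tubule were near 0.

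In both libraries, 9 of the 10 genes reached an FPKM of 1, EPO being the exception, against 58.8% of all protein-coding genes. From highest to lowest mean FPKM the order was HIF1A at 98.6 ± 2.86, NDRG1 at 43.5 ± 2.32, EPAS1 at 28.6 ± 10.8, VEGFA at 19.5 ± 3.29, CA9 at 17.8 ± 0.706, EGLN2 at 15.9 ± 1.62, EGLN1 at 14.97 ± 0.174, VHL at 10.8 ± 0.130, EGLN3 at 2.64 ± 0.0897 and EPO near 0. Neighbours in this order were taken to differ where their library values did not overlap and the gap of means exceeded the sum of both SDs, which held for 5 of 9 pairs. EPAS1 and VEGFA, VEGFA and CA9, CA9 and EGLN2, and EGLN2 and EGLN1 did not differ beyond this spread. The genes from EPAS1 to EGLN1 thus form a middle range in which the order of neighbours was not settled, with HIF1A and NDRG1 above it and VHL, EGLN3 and EPO below. The places of NDRG1 and VEGFA depend on which transcripts are counted, since their protein-coding transcripts alone were given means of 9.77 and 11.5. The median FPKM of the 10 genes was 16.9, beside 3.32 for all protein-coding genes.

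**Figure D1:**
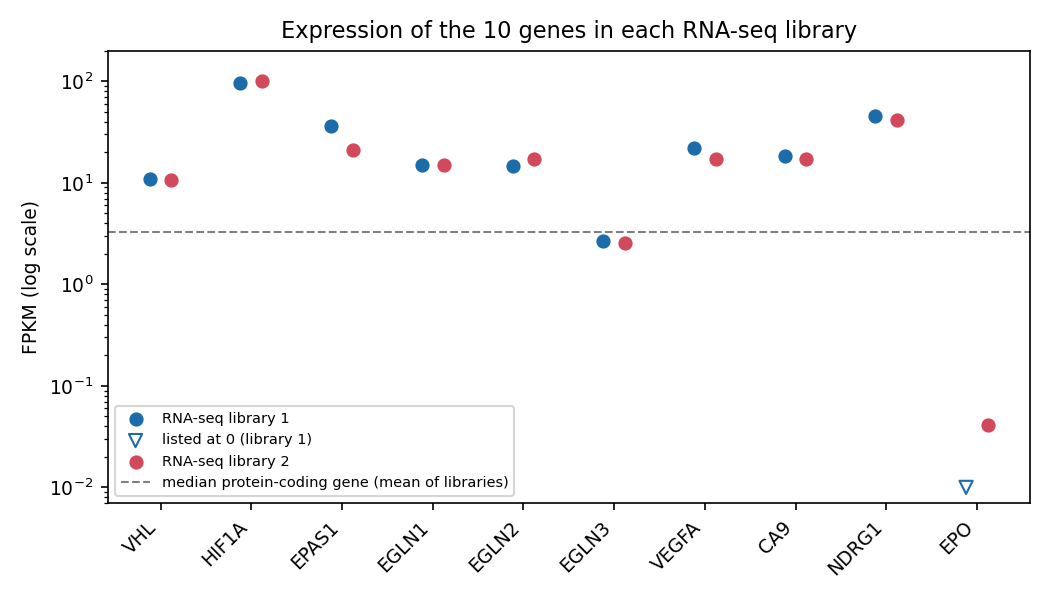
FPKM of each of the 10 genes (log axis) in RNA-seq library 1 (blue) and library 2 (red); the dashed line is the median protein-coding gene and the open triangle marks a value listed at 0. The libraries sit close together except at EPAS1, at 36.3 and 21.0, and at EPO, listed at 0 in library 1 and at 0.0409 in library 2. EGLN3 and EPO are the genes below the dashed line.

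H3K4me3 peaks lay within 1 kb of a TSS in both replicates at 8 of the 10 genes, beside 70.3% of protein-coding genes. The same 8 genes had H3K27ac there in both replicates, beside 55% of protein-coding genes. CA9 and EPO were the genes without these calls. An H3K27me3 peak lay at a TSS in both replicates at 1 gene, EGLN3, beside 11.4% of protein-coding genes, and no other member had one in either replicate. Around the canonical TSS alone, EGLN3 lost its H3K27ac call in replicate 2 and its H3K27me3 calls in both. There, 7 genes kept H3K27ac in both replicates, beside 50.8% of protein-coding genes, and none H3K27me3, beside 9.44%. Replicate 1 covered more of these windows than replicate 2 for H3K27ac at every gene with a peak.

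**Figure D2:**
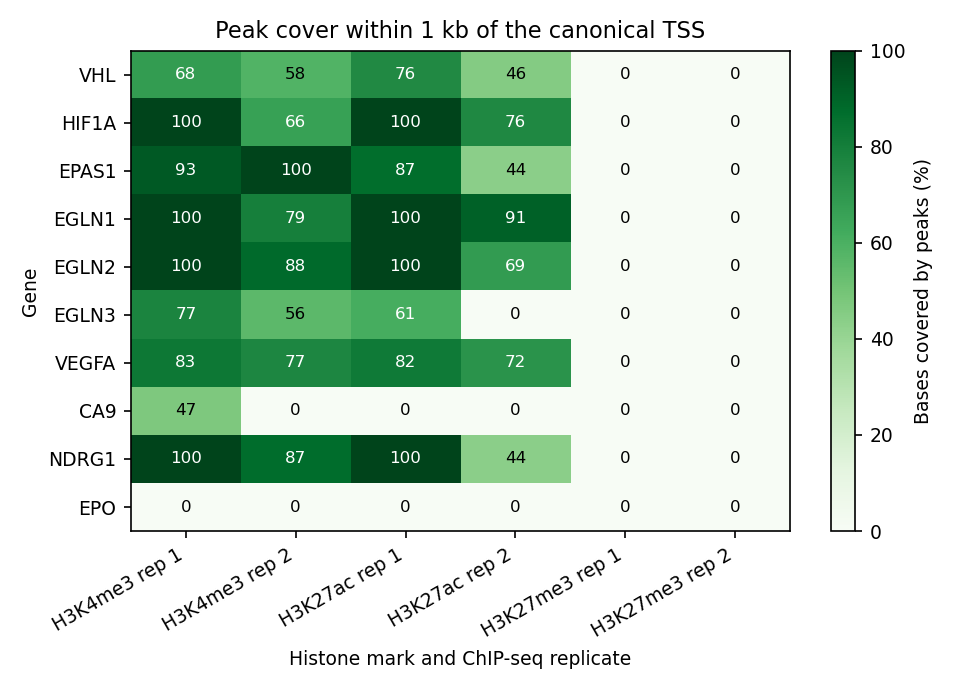
Share of the window from 1 kb before to 1 kb after the canonical TSS that peaks covered (colour and printed value, in %), for each of the 10 genes (rows) and each mark and replicate (columns). CA9 was covered at 46.9% in H3K4me3 replicate 1 and at 0 in all other lists, and EPO at 0 in all 6.

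VHL, the substrate receptor for hydroxylated HIF, lies on the plus strand of chromosome 3 from 10183462 to 10195351 in GRCh37 (ENSG00000134086). Its FPKM was 10.9 in library 1 and 10.7 in library 2, a 1.02-fold gap, and it ranked 5875 among 19646 protein-coding genes. The H3K4me3 peak over its TSS ran from 10183100 to 10185473 in replicate 1, and that of replicate 2 from 10183293 to 10184967. H3K27ac covered 10182948 to 10184603 in replicate 1 and 10183351 to 10184261 in replicate 2. These were the only peaks of either mark over the gene, so its 11.9 kb held no H3K27ac away from the promoter. The nearest H3K27me3 peak was 186 kb downstream in replicate 1 and 187 kb downstream in replicate 2.

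Expression of VHL was divided among 3 transcripts. The canonical transcript with 3 exons (ENST00000256474) held 58.6% and 58.0% of the gene's FPKM in libraries 1 and 2. A transcript that skips the middle exon (ENST00000345392), and so lacks part of the domain that binds HIF, held 28.6% and 25.7%. The remaining 12.8% and 16.3% went to a shorter transcript without a defined coding sequence (ENST00000477538). Only 3.57% of the FPKM was assigned to different transcripts between the libraries, beside a median of 11.0% over 8371 protein-coding genes of mean FPKM at least 5. Within the canonical transcript the middle exon, 123 bp long, had a coverage of 182 and 171, the first exon 54.8 and 55.0, and the last 20 and 17.5. Coverage of the middle exon thus exceeded both of its neighbours in each library. An annotated antisense RNA over the last part of VHL, ENSG00000287086, had no row in the RNA-seq data.

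HIF1A encodes the HIF alpha subunit found in most cell types and had the highest level of the 10 genes. Its FPKM was 96.5 in library 1 and 100.6 in library 2, rank 505 of all protein-coding genes, and exceeded VHL 8.84-fold and 9.37-fold in the respective libraries. The gene (ENSG00000100644) spans chromosome 14 from 62162231 to 62214977 on the plus strand. Its leading transcript (ENST00000337138) took 61.0% and 50.4% of the FPKM, and ENST00000394997, whose second exon is 3 bp longer, took 24.5% and 21.7%. A further transcript, ENST00000323441, held 9.26% in library 1 and 22.5% in library 2. In the leading transcript the seventh exon, 107 bp long, had a coverage of 688 in library 1 and 53.8 in library 2, while the median exon was at 426 and 383. Summed over all HIF1A transcripts that share this exon, its coverage was 713 and 782, so the difference lay in the assignment of reads to transcripts. The ninth exon, 221 bp long, was low in both libraries, at 2.79 and 2.67. Summed over all HIF1A transcripts it was at 10.5 and 10.2, beside 738 and 784 in the eighth exon and 682 and 775 in the tenth. Why the ninth exon was low was not tested. The antisense gene HIF1A-AS3 overlaps 41.0 kb of HIF1A and was at 5.69 and 5.55, and HIF1A-AS1, also antisense, was at 0.160 and 0.577. On the same strand, ENSG00000258964 was at 0.370 and 0.239, and ENSG00000288928 had no row in the RNA-seq data. The strand of the libraries is not stated, so the split of reads between HIF1A and its antisense genes is uncertain.

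Acetylation reached over nearly the whole of HIF1A in replicate 1. There, 3 H3K27ac peaks of 13.5, 16.03 and 34.8 kb covered 97.7% of the gene body, and the longest ranked 21 by width among 57761 peaks. In replicate 2, 10 H3K27ac peaks covered 20.8% of the body, the widest 5.54 kb long and ranked 298 among 38639. The H3K4me3 peak at the TSS was 9.19 kb wide in replicate 1, rank 19 of 29130, and 1.04 kb in replicate 2. A further H3K4me3 peak of 7.75 kb in replicate 1 lay from 49.2 to 57.0 kb downstream of the HIF1A TSS, over the start of HIF1A-AS3. HIF1A thus held wide peaks of both H3K27ac lists, but only replicate 1 covered most of the gene.

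EPAS1 encodes the HIF alpha subunit known from endothelium, kidney and clear cell renal carcinoma. The gene (ENSG00000116016) lies on the plus strand of chromosome 2 from 46520806 to 46613836. It was at 36.3 FPKM in library 1 and 21.0 in library 2, a 1.73-fold gap and the only one over 1.5-fold among 8 members of mean FPKM at least 5, beside 3.86% of the 8732 protein-coding genes at that level. HIF1A exceeded EPAS1 2.66-fold in library 1 and 4.79-fold in library 2. The gap sat in the last of the 16 exons of the leading transcript (ENST00000263734, 95.7% and 92.2% of the FPKM). This exon of 2195 bp had a coverage of 204 in library 1 and 4.79 in library 2, 42.7-fold apart, and summed over all EPAS1 transcripts 208 and 4.84. Over the other 15 exons, mean coverage was 191 and 182, only 1.05-fold apart. A rule set after seeing this, an exon of at least 500 bp over 10-fold apart while the median exon was under 1.5-fold apart, took 1.63% of 8524 leading transcripts. EPAS1 meets it by construction, and shorter exons are left out of it. The thirteenth exon, at 180 and 60.3, and the first, at 172 and 123, were the next most different of the 16. The gap in EPAS1 thus lay mostly in the read coverage of its last exon, and its cause was not tested.

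**Figure D3:**
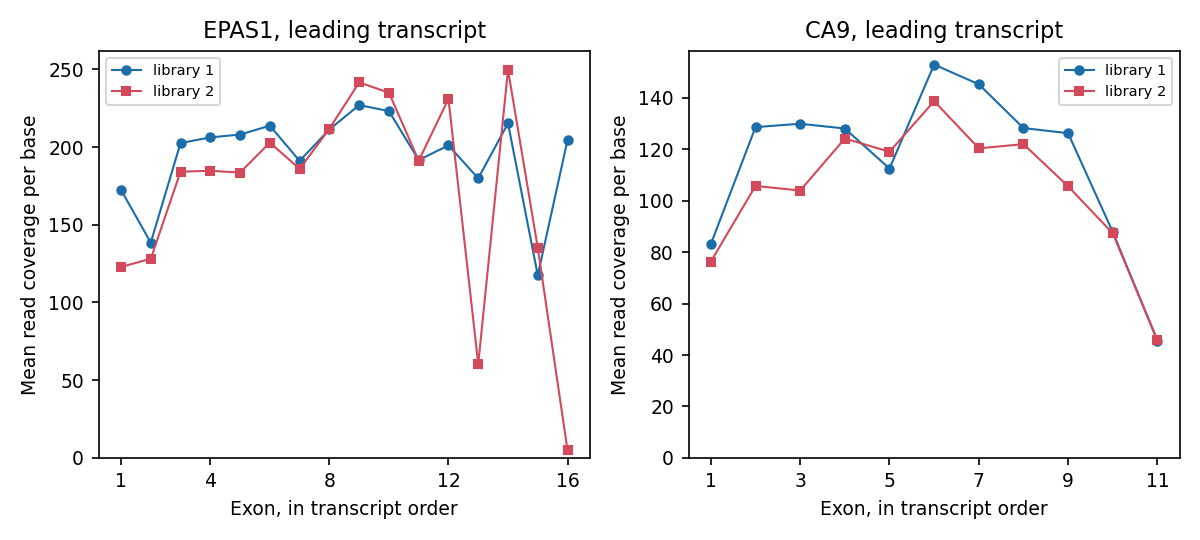
Mean read coverage per base of each exon, in transcript order, of the leading transcripts of EPAS1 (left, 16 exons) and CA9 (right, 11 exons) in library 1 (blue circles) and library 2 (red squares). For EPAS1 the libraries lie close together except at the first, the thirteenth and the last exon, which falls to 4.79 in library 2, and for CA9 they lie close together throughout.

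At the canonical EPAS1 promoter, H3K4me3 peaks of 4.04 and 3.78 kb were called in replicates 1 and 2, the latter rank 123 of 73942 by width. H3K27ac was present there in both replicates. Inside the gene, H3K27ac peaks 2.30 and 2.45 kb wide overlapped in replicates 1 and 2, ending 19.3 and 19.4 kb downstream of the TSS. A second stretch of replicate 1, from 31.2 to 34.9 kb, was matched by 3 peaks between 31.7 and 34.8 kb in replicate 2. A further peak, from 36.8 to 38.15 kb and near another annotated TSS, was called in replicate 1 only. Most but not all of the intragenic acetylation of EPAS1 was thus called in both replicates. An H3K27me3 peak of 256 bp lay 7.95 kb upstream in replicate 1 only.

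Of the prolyl hydroxylases, EGLN3 stood below EGLN1 and EGLN2. EGLN1, regarded as the main oxygen sensor for HIF, was at 14.9 and 15.1 FPKM in libraries 1 and 2, and EGLN2 was at 14.7 and 17.02. EGLN3, itself a HIF target in many cells, was at 2.70 and 2.57, so EGLN1 exceeded it 5.50-fold and 5.87-fold. EGLN3 ranked 10324 and lay below the median protein-coding gene, while EGLN1 and EGLN2 did not differ beyond their spread.

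Promoter sequences are shown for these enzymes because EGLN1 and EGLN2 carry the core HIF letters in the stretch before the start and EGLN3 does not. Each of these promoters was above the median CpG count of all promoters. They are from RefSeq promoters of GRCh38.p14, which were placed in GRCh37 by an exact match, and show bases before the start site that lie outside annotated exons, 5′ to 3′ on the strand of the gene. Capitals mark ACGTG, the core of the HIF binding motif, on either strand, which occurred in 21.4% of 35116 promoters of 300 bases, longer than the stretches shown. EGLN1 is chr1:231558034-231558283 (minus strand), EGLN2 chr19:41304954-41305095 (plus strand) and EGLN3 chr14:34420288-34420530 (minus strand).
EGLN1: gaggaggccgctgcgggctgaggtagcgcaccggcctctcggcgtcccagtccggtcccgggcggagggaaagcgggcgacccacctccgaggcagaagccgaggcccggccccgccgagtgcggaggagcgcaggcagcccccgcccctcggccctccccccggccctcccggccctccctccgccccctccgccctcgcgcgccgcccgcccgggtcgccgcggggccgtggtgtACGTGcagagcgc
EGLN2: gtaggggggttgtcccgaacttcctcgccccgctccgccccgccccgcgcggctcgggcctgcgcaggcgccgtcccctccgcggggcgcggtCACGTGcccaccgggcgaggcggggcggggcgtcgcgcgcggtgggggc
EGLN3: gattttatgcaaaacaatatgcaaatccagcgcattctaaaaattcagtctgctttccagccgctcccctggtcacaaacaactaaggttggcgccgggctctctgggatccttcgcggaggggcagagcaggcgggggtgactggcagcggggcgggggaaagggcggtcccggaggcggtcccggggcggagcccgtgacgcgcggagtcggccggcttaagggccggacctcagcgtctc

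The match in EGLN1 begins 13 bases before its start site. In EGLN2 the letters CACGTG, 49 bases before the start, read as ACGTG on both strands. No ACGTG or GCGTG occurred in the stretch of EGLN3. Over 300 bases, from 250 before to 50 after the start, CpG dinucleotides numbered 42 in EGLN1, 44 in EGLN2 and 27 in EGLN3, beside a median of 14 in 35116 promoters.

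EGLN1 (ENSG00000135766, chromosome 1 from 231499497 to 231558033, minus strand) had its FPKM in ENST00000366641, 1 of its 2 transcripts in the RNA-seq data, in both libraries. Its promoter had an H3K4me3 peak of 6.14 kb in replicate 1 and 2.54 kb in replicate 2. Over the gene body lay 6 H3K27ac peaks of replicate 1 and 5 of replicate 2. The widest away from the promoter, 5.46 and 2.57 kb, overlapped each other, from 24.2 to 29.7 kb and from 25.6 to 28.1 kb downstream of the TSS. H3K27me3 peaks of 4.46 and 1.14 kb lay 11.8 and 11.97 kb upstream, with no protein-coding canonical TSS within 1 kb of either. The gene ENSG00000287856, which overlaps EGLN1 on the same strand, had no row in the RNA-seq data.

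EGLN2 (ENSG00000269858, chromosome 19 from 41304901 to 41314339, plus strand) was spread over more transcripts. The leading one, ENST00000303961, held 51.5% and 64.6% of its FPKM, and transcripts with a retained intron held 16.2% and 22.4%. Exon 4 of the leading transcript was low in both libraries, at a coverage of 3.49 and 4.84. Summed over all EGLN2 transcripts it was at 24.0 and 16.4, beside 152 and 168 in exon 3 and 186 and 258 in exon 5. The cause was not tested. The readthrough gene RAB4B-EGLN2, which shares exons with EGLN2, was at 3.61 FPKM in library 1 and 0.506 in library 2. EGLN2 itself was lower in library 1, where the readthrough gene was higher, and how shared reads were divided between them was not tested. A second overlapping gene on the same strand, ENSG00000268797, was listed at 0 in both libraries. H3K4me3 and H3K27ac covered the canonical TSS in all 4 lists, and the nearest H3K27me3 peak was 109 kb downstream in both replicates.

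EGLN3 (ENSG00000129521, chromosome 14, minus strand) was the member whose marks depended on which TSS was read. The annotated gene runs from 34393433 to 34931980, which is 539 kb, although its canonical transcript ENST00000250457 spans 26.8 kb and held 84.3% and 70.5% of the FPKM. The second transcript, ENST00000547327, starts 7 bp from it and held 12.8% and 14.3%. At the canonical TSS, H3K4me3 was present in both replicates and H3K27ac, from 34419672 to 34420895, in replicate 1 only. The H3K27ac call of replicate 2 came from the farthest TSS, 512 kb upstream, which lies 534 bp from the canonical TSS of SPTSSA, a gene for a subunit of serine palmitoyltransferase with an FPKM of 12.6 and 14.1. The H3K27me3 call shared by both replicates came from a TSS 277 kb upstream, where the peak of replicate 1 ran from 34695671 to 34697058 and that of replicate 2 from 34696397 to 34697035. The transcripts that start at these distant TSSs, ENST00000551935 and ENST00000546681, were listed at 0 in both libraries. Both the acetylation of replicate 2 and the H3K27me3 call thus lay far from the promoter used by the leading transcript.

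The H3K27me3 peaks nearest to the canonical TSS of EGLN3 lay 5.42 and 51.3 kb upstream. Within its canonical transcript there was no H3K27me3 peak in either replicate, while the annotated body as a whole held 40 in replicate 1 and 17 in replicate 2. An intragenic H3K27ac peak was called in both replicates, from 34406851 to 34408883 and from 34407124 to 34408812, at 11.4 to 13.4 kb downstream of the canonical TSS in replicate 1. It was the nearest H3K27ac peak to the canonical TSS in replicate 2. The overlapping genes EGLN3-AS1 and ENSG00000223593 were listed at 0 in both libraries, and the microRNA gene AL358340.1 had no row in the RNA-seq data.

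VEGFA encodes the angiogenic growth factor and lies on the plus strand of chromosome 6 from 43737921 to 43754224 (ENSG00000112715). Its FPKM was 21.8 in library 1 and 17.2 in library 2, and the division of this sum among 32 transcripts differed strongly between them. The transcript leading by its mean, ENST00000519767, held 50.2% of the FPKM in library 1 and was listed at 0 in library 2. A transcript with a retained intron, ENST00000497139, held 11.3% and 38.7%, and the coding transcript ENST00000372067 held 15.2% and 18.3%. In all, 55.1% of the FPKM was assigned to different transcripts between the libraries, more than in 95.4% of the genes compared. Summed over all VEGFA transcripts, exon 1 of ENST00000519767 had a coverage of 130.7 in library 1 and 49.1 in library 2. Its exon 2 was at 50.9 and 56.5, exon 3 at 100.1 and 101.5, exon 4 at 115.2 and 127.7, and exon 5 at 127.8 and 128.3. Exon 6 was at 40.6 and 24.7, and exon 7 at 42.5 and 63.2. Read coverage of exon 1 thus differed as well as the assignment to transcripts, and the cause was not tested. Counting only protein-coding transcripts, VEGFA was at 16.4 in library 1 and 6.55 in library 2, so its coding level was far less certain than its total.

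The VEGFA promoter carried wide peaks in both replicates. H3K4me3 peaks of 4.92 and 3.96 kb were in the widest 1.41% and 0.135% of their lists, and H3K27ac peaks were 3.77 and 2.48 kb wide. H3K27ac did not extend past 4.45 kb downstream of the canonical TSS in either replicate, so the distal part of the gene was without acetylation. H3K27me3 peaks lay 8.29 kb upstream in replicate 1 and 18.8 kb upstream in replicate 2. The antisense RNA ENSG00000272114 near its start was listed at 0 in both libraries.

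NDRG1, named for its regulation by the MYC family member N-myc and induced by cellular stress, spans chromosome 8 from 134249418 to 134314265 on the minus strand (ENSG00000104419). By total FPKM it was the highest of the 4 targets, at 45.1 and 41.8 FPKM in libraries 1 and 2. Protein-coding transcripts were assigned only 21.2% and 23.9% of this, or 9.55 and 10 FPKM, beside 9.53 and 8.99 for the coding transcripts of VHL. A transcript with a retained intron, ENST00000521026, led with 38.7% and 60.8%. ENST00000521414, without a defined coding sequence, held 26.9% and 9.78%, and the canonical transcript ENST00000323851 held 9.08% and 10.7%. The last exon of the leading transcript, 1944 bp long, had a coverage of 108 and 154, while its other 2 exons were at 3.57 and 3.47, and at 36.4 and 29.7. The canonical transcript contains the whole of this last exon but was given a coverage of 0.0254 and 0.0396 there, and all transcripts together had 189.6 and 180.2. The small coding share of NDRG1 thus depends on how reads of a shared exon were assigned, and its coding level is uncertain. By coding transcripts NDRG1 was below CA9, which was at 18.3 and 17.2 in libraries 1 and 2. The coding transcripts of VEGFA, at 16.4 and 6.55, were above those of NDRG1 in library 1 and below them in library 2. The first place of NDRG1 among the targets thus holds for total FPKM only.

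**Figure D4:**
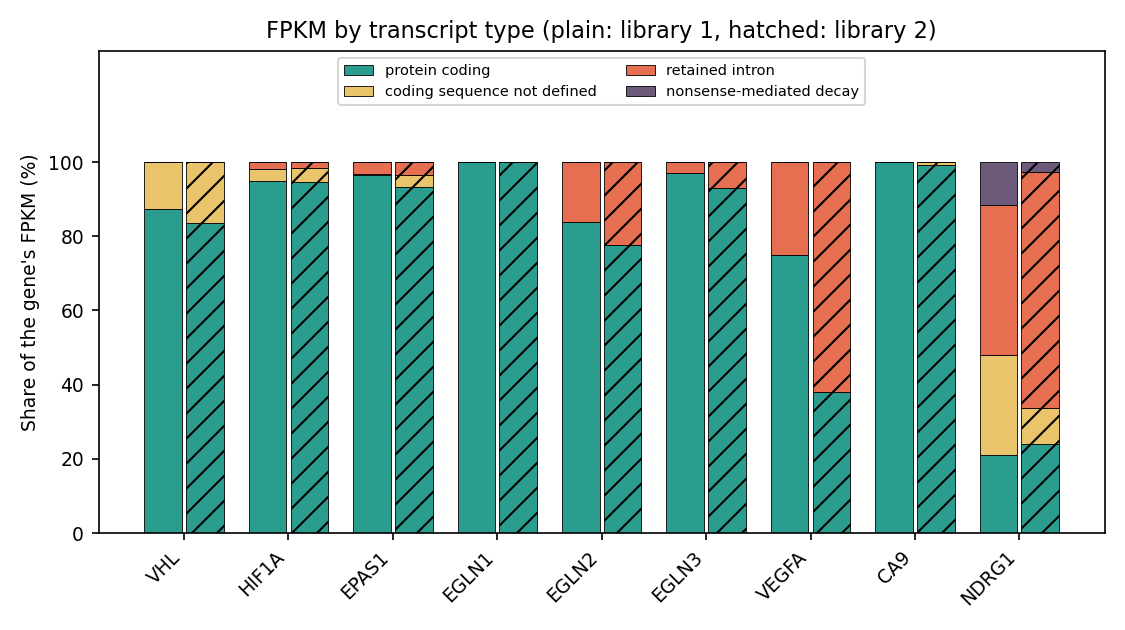
Share of each gene's FPKM (in %) assigned to each transcript type for 9 genes in library 1 (plain bars) and library 2 (hatched bars); EPO is left out because its FPKM was listed at 0 in library 1. Protein-coding transcripts made up 99% or more of EGLN1 and CA9, 75.1% and 38.2% of VEGFA in libraries 1 and 2, and 21.2% and 23.9% of NDRG1.

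At NDRG1, H3K4me3 covered the canonical TSS in both replicates. H3K27ac covered it in replicate 1, and in replicate 2 the peak began 126 bp upstream of it. Over the annotated body, replicate 1 had 3 H3K27ac peaks and replicate 2 had 1, which was this same upstream peak. Over the canonical transcript, replicate 1 had 3 H3K27ac peaks and replicate 2 had 0. ENSG00000289316, which overlaps the end of NDRG1 on the same strand, had no row in the RNA-seq data.

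CA9 encodes a membrane carbonic anhydrase that is widely used as a marker of hypoxia and of clear cell renal carcinoma. It lies on the plus strand of chromosome 9 from 35673925 to 35681156 (ENSG00000107159). The bases before its start site are shown because they hold the core HIF letters beside a TSS with almost no marks. CACGT, in capitals, is ACGTG on the other strand and begins 18 bases before the start. The stretch is chr9:35673895-35673924 in GRCh37, plus strand, from the RefSeq promoter of GRCh38.p14. It lies within the annotated bounds of ARHGEF39, a gene of the opposite strand.
CA9: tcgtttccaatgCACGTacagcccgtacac

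CA9 was at 18.3 FPKM in library 1 and 17.3 in library 2, rank 3862 of 19646. The transcript ENST00000378357 held 99% or more of this in each library, and all 11 of its exons were covered, at 45.5 to 153 in library 1 and 45.8 to 139 in library 2. CA9 was thus expressed above VHL, with all exons of a single transcript covered. ARHGEF39, which overlaps the first 1.94 kb of CA9 on the opposite strand, was at 2.91 and 2.34 FPKM, so its level was well below that of CA9. The split of reads between the overlapping genes is uncertain, because the strand of the libraries is not stated.

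No H3K27ac peak lay within 1 kb of any of the 3 CA9 TSSs or over its body in either replicate. An H3K4me3 peak of 938 bp, from 35673531 to 35674468, covered the TSS in replicate 1 and was missing in replicate 2. In a comparison set after CA9 was seen, of 5939 protein-coding genes that reached an FPKM of 10 in both libraries, 0.32% had no H3K27ac peak at a TSS in either replicate, and CA9 was the 1 of 8 members at that level among them. The nearest H3K27ac peaks were 8.10 and 8.74 kb upstream, at the canonical TSS of ARHGEF39. H3K27me3 was far away, 220 kb in replicate 1 and 712 kb in replicate 2. CA9 thus combined a transcript level above the median protein-coding gene with none of the 3 marks called in both replicates.

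EPO encodes erythropoietin and lies on the plus strand of chromosome 7 from 100318091 to 100321323 (ENSG00000130427). Its promoter is shown beside that of CA9 as the other TSS without marks in both replicates, as chr7:100317841-100318090 on the plus strand, with the same source and build. The stretch shown has no ACGTG or GCGTG and therefore no capitals, while a GCGTG lay after the start site.
EPO: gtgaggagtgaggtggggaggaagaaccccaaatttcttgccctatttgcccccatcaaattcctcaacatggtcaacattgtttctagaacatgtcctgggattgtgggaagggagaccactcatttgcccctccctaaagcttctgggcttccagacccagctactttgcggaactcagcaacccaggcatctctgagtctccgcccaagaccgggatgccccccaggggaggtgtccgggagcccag

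EPO was listed at 0 in library 1 and at 0.0409 FPKM in library 2. The latter stood for 300 aligned bases in the last of 5 exons, and the other 4 exons were at 0. No peak of any mark lay within 1 kb of its TSS or over its body in the 6 lists. The nearest H3K27ac peaks were 4.91 kb downstream in replicate 1 and 13.9 kb upstream in replicate 2, the latter at the canonical TSS of POP7, which encodes a subunit of ribonuclease P and MRP. The nearest H3K27me3 peaks were 17.3 and 64.2 kb upstream. EPO thus had neither the active marks nor H3K27me3 at its promoter.

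**Figure D5:**
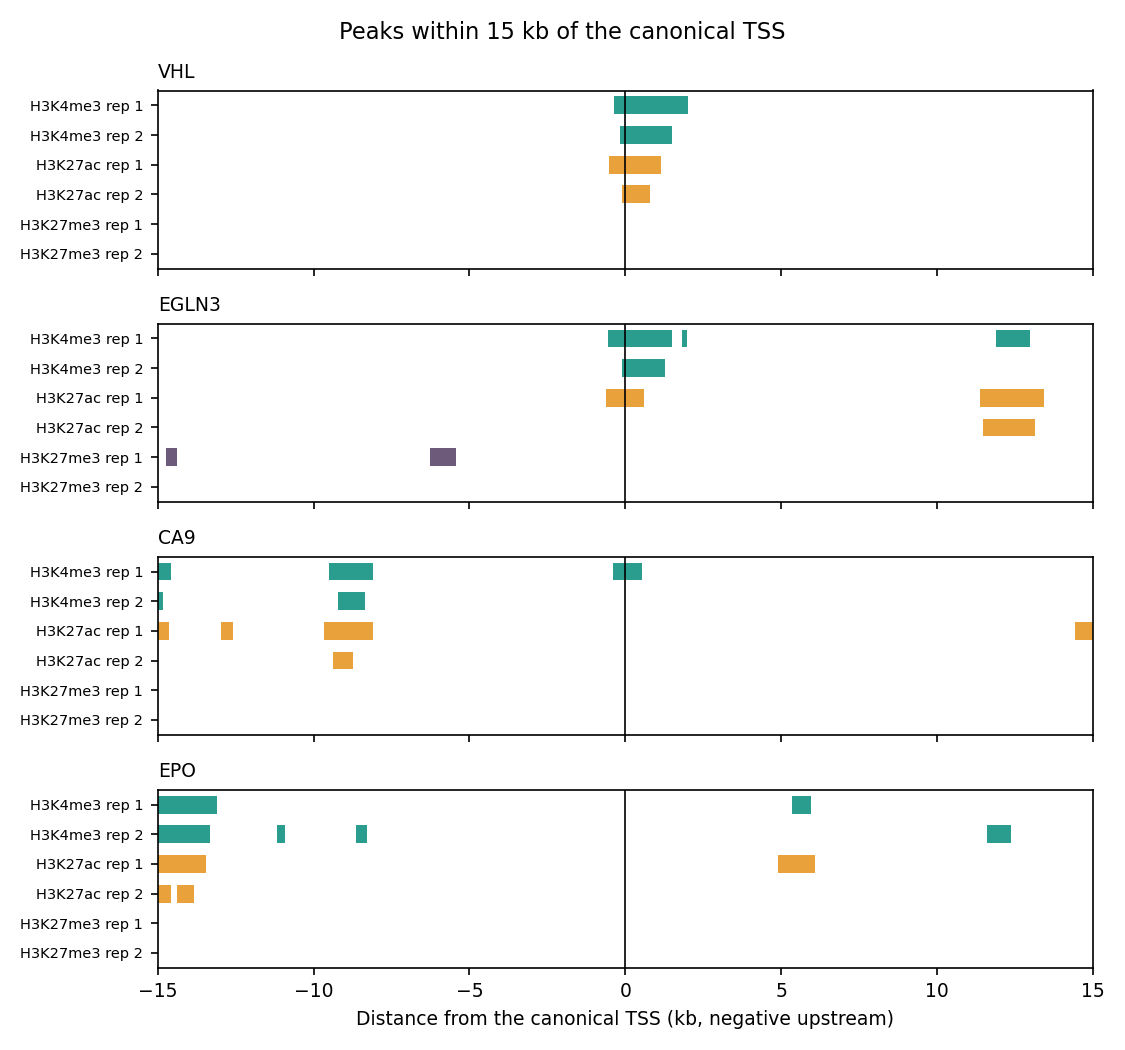
Peaks within 15 kb of the canonical TSS (vertical line) of VHL, EGLN3, CA9 and EPO, drawn by distance from the TSS in kb with upstream to the left and clipped at 15 kb; each row is a mark and replicate (green H3K4me3, orange H3K27ac, purple H3K27me3). At VHL all 4 lists of active marks overlap at the TSS, at CA9 only H3K4me3 replicate 1 does, and at EPO none does.

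RefSeq promoters matched 7 of the 10 genes, all but VHL, VEGFA and NDRG1. ACGTG and GCGTG, which differ in their first base and can share an end base, were searched on both strands of the 300 bases from 250 before to 50 after the start. At least 1 of them occurred in 6 of the 7 promoters, EGLN3 being the exception, beside 48.4% of 35116 promoters. ACGTG alone was in EGLN1, EGLN2 and CA9, beside 21.4% of all promoters. GCGTG was in HIF1A, EPAS1 and EPO, beside 36.5%, and in EPO it lay after the start. CA9 with 7 CpG dinucleotides and EPO with 8 were the CpG-poor members, while HIF1A had 31 and EPAS1 47. The 5 promoters with H3K4me3 in both replicates were above the median CpG count of 14 over all promoters, and CA9 and EPO were below it. A match describes letters only and does not show that HIF was bound.

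The protein-coding genes most like VHL were sought over 8 values, log2(FPKM + 1) in 2 libraries and peak cover of the canonical TSS window in 6 lists, each scaled to an SD of 1. The nearest were HSBP1L1 at a distance of 0.229, GLIS3, which encodes a zinc finger transcription factor, also at 0.229, and PCGF6, which encodes a Polycomb group RING finger protein, at 0.254. The median distance over 19645 genes was 2.28. Their FPKM was 9.98 and 9.46 for HSBP1L1, 10.4 and 12.9 for GLIS3, and 10.7 and 10.1 for PCGF6 in libraries 1 and 2. Among the other members, VEGFA was nearest to VHL at 1.18 and EPO farthest at 4.05, with CA9 at 2.96. CA9 and EPO were thus the members least like VHL.

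Among 13 other genes of the oxygen-sensing machinery, 11 reached an FPKM of 1 in each library, beside 58.8% of all protein-coding genes, with a median of 15.6. CITED2, which competes with HIF for its coactivators, was at 87.4 and 86.9 FPKM. ELOB was at 79.2 and 77.2, RBX1 at 51.5 and 50.4 and ELOC at 34.4 and 42.0, which are partners of VHL in the ubiquitin ligase and were above VHL. The scaffold of that ligase, CUL2, was below VHL at 7.74 and 8.39. SIAH2, a ligase that acts on the hydroxylases, was at 20.3 and 17.7. HIF3A, encoding a further HIF alpha subunit, was listed at 0 in both libraries although H3K27ac lay at a TSS in both replicates. ARNT2, a paralogue of the HIF partner ARNT, was low at 0.469 and 0.618, with H3K4me3 in both replicates. ARNT2 was the 1 gene of the 13 with H3K27me3 in both replicates, beside 11.4% of all protein-coding genes. The machinery around VHL thus reached an FPKM of 1 except for HIF3A and ARNT2. H3K4me3 was called in both replicates at 12 of the 13, beside 70.3% of all protein-coding genes, and H3K27ac at 12, beside 55%.

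Of 34 further hypoxia-inducible genes, 33 reached an FPKM of 1 in both libraries, beside 58.8% of all protein-coding genes, with a median of 19.1. All 34 had H3K4me3 and 32 had H3K27ac at a TSS in both replicates, beside 70.3% and 55%. The glycolytic genes PGK1, at 366 and 422 FPKM, and LDHA, at 250 and 329, were highest by mean FPKM. P4HA1, a collagen hydroxylase, was at 81.7 and 83.4, and BNIP3, a mitophagy receptor, at 79.8 and 84.2. The chemokine receptor gene CXCR4 was at 0.0153 in library 1 and listed at 0 in library 2, with H3K27me3 in both replicates and no H3K27ac. CXCR4 and CA12 were the genes without H3K27ac. These are levels without a low-oxygen arm and do not show induction.

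A list of 12 other genes held ligands and receptors of the VEGF and EPO families and the angiopoietin genes ANGPT1 and ANGPT2. Of these 12, 7 reached an FPKM of 1 in both libraries, beside 58.8% of all protein-coding genes. The coreceptor genes NRP1, at 29.7 and 26.0 FPKM, and NRP2, at 24.9 and 27.04, and the ligand gene VEGFC, at 26.0 and 25.2, were highest and did not differ beyond their spread. The ligand gene VEGFB was at 13.0 and 12.8. The receptor gene FLT4 was at 4.18 and 3.89, with H3K27me3 and H3K27ac in both replicates. The main VEGFA receptor genes KDR and FLT1 were listed at 0 in both libraries and had H3K27me3 in both replicates. H3K27me3 was thus called in both replicates at 3 of the 12, beside 11.4% of all protein-coding genes. ANGPT1 was listed at 0 and ANGPT2 was at 0.00967 and 0.00234. VEGFA was thus present without its signalling receptors, while its coreceptors were expressed.

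Of 8 paralogues of CA9 and NDRG1, 5 reached an FPKM of 1 in both libraries, beside 58.8% of all protein-coding genes. NDRG3 was at 24.7 and 24.5 FPKM, NDRG4 at 10.5 and 11.7 with H3K27me3 in both replicates, and NDRG2 at 2.84 and 3.03. Among the carbonic anhydrases, the cytosolic CA2 was at 13.6 and 15.97, and CA12, like CA9 a membrane enzyme and HIF target, was at 1.21 and 1.45. CA14 was at 0.0390 and 0.0815, and CA4 and CA1 were listed at 0, with H3K27me3 at CA4 in both replicates. CA9 was thus above every other carbonic anhydrase gene of the list in library 1 and in library 2.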

How the data were processed

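ChIP-seq reads were trimmed and mapped to hg19 by Bowtie2, and the authors used MACS2 on every replicate separately to obtain the peaks, given as chromosome, start and end. RNA-seq reads were mapped with HISAT2 and quantified with StringTie 1.3.3, and the deposited values are FPKM, TPM and coverage per transcript and exon on GENCODE version 27. The methods name hg19 for RNA-seq, but its coordinates are those of GRCh38, so no RNA-seq coordinate was used with the peaks. HiChIP and input samples were not used here. The unnumbered replicate of each mark was taken as replicate 1. Transcript FPKM was summed per gene, and genes were joined by Ensembl identifier to GENCODE version 44 mapped to GRCh37, which gave TSSs, gene bodies and transcript types. Of H3K4me3 peaks in replicates 1 and 2, 51.5% and 26.96% lay within 1 kb of a protein-coding TSS in GRCh37, beside 13.3% and 9.95% with GRCh38 positions. A call needs an overlap of at least 1 bp with the window of 1 kb on each side of a TSS.

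Named genes were the 10 members, in each list the 5 of highest mean FPKM, those below 0.1 in both libraries and those with H3K27me3 at a TSS in both replicates, genes overlapping a member, and the 3 genes most like VHL. Of the genes that met these rules, 2 are not named but are in the counts and medians. POP7, CUL2, CA12 among the hypoxia-inducible genes, the exon rule for EPAS1, the comparison of CA9 with genes at an FPKM of 10, and exon coverage summed over transcripts by shared bases were chosen after values were seen. The members and lists were chosen with earlier results of these data known, and no test was run. Python 3.11.15, numpy 2.4.6, pandas 2.3.3 and matplotlib 3.10.9 were used, and the overlap functions were tested on simulated data.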

Additional observations from a re-analysis of the deposited data

How the results depend on the processing

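The counts of members with an FPKM of at least 1 and with H3K4me3 or H3K27ac at a TSS moved by no more than 1 under any alternative tried. The H3K27me3 count fell to 0 with 1 TSS per gene, beside 9.44% of protein-coding genes, because the EGLN3 call lay at a distant TSS. The median FPKM of the members, 16.9, was 12.1 with protein-coding transcripts only, 46.7 in TPM, which is another scale, and 16.6 to 17.1 with either library left out. The leading transcript held a median of 58.3% of a member's FPKM, and 61.0 to 64.6% with either library left out. H3K27ac peaks over the gene bodies numbered 34 in replicate 1 and 30 in replicate 2. With 20 kb added on each side they numbered 58 and 53, without peaks near a TSS 19 and 18, and with only peaks at least 500 bp wide 32 and 21, which set the replicates further apart. Of the 34, 17 were overlapped by a replicate 2 peak, with 1 bp or with 50% of the shorter peak asked for. The matching values over all genes are not given, so these peak counts describe the members only. Chosen after seeing the data, the body of the canonical transcript gave 23 and 24, and EPAS1 coverage in library 1 over library 2 was 1.84 with all exons of its leading transcript and 1.05 without the last. The cause of the differences between replicates was not tested. No paired analysis was possible because no result comes from a test. A single condition, 2 libraries, peaks without height and an unstated library strand limit these values, and a missing peak can reflect depth, which the lists do not show.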

Other observations

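Markers of other kidney and blood cell types were mostly near 0. The podocyte genes PTPRO, NPHS1 and WT1 were below an FPKM of 0.1 in both libraries, and NPHS1 and WT1 had H3K27me3 at a TSS in both replicates. Of the loop, distal and collecting duct genes, SLC12A3 was at 0.0440 and 0.0827 FPKM in libraries 1 and 2, and UMOD, SLC12A1 and AQP2 were listed at 0. SLC12A1 nevertheless had H3K4me3 and H3K27ac at a TSS in both replicates. Of 4 endothelial genes 3 matched the data, where VWF and EMCN were listed at 0 and CDH5 was at 0 and 0.0404. Their summed FPKM was 0 and 0.0404, while VEGFA was at 21.8 and 17.2.

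Of 4 genes of fibroblasts and of the interstitial cells that make EPO, 2 reached an FPKM of 1 in both libraries, beside 58.8% of all protein-coding genes. COL1A1, which encodes a collagen chain, was at 40.3 and 39.9 FPKM, and NT5E, which encodes the enzyme CD73, at 8.56 and 9.09. PDGFRB was at 0.933 and 0.693 with H3K27ac in both replicates, and DCN at 0.659 and 0.0525. The summed FPKM of the 4 genes, most of it from COL1A1, was 50.5 in library 1 and 49.7 in library 2, beside EPO at 0 and 0.0409. These levels alone do not assign an interstitial identity to the cells. Of 4 immune genes, CD68, a lysosomal protein gene also active outside macrophages, was at 42.5 and 36.8, CD79A was at 0.109 and 0, and the leukocyte genes PTPRC and CD3E were listed at 0.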
